A study of Mus musculus with 2 samples.

Results

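Cells answer low oxygen by changing transcription, and 8 genes of that response, Hif1a, Egln3, Vegfa, Hilpda, Ndrg1, Bnip3, Ero1l and Ddit4, were followed here among immune cells of mouse livers seeded with metastases of the B16F10 melanoma line. They were taken by symbol from the 31253 genes listed for both libraries, and each symbol was found once. Live (DAPI-negative) CD45+ singlets were sorted by flow cytometry from metastasis-rich liver pieces of Vsig4-/- mice (the Vsig4 KO library) and of WT mice (the WT library), after digestion with collagenase IV and DNase I and lysis of red blood cells, and profiled with the 10x Genomics 5′ single-cell chemistry. VSIG4 is a complement receptor of Kupffer cells, which are the liver's own macrophages. The labels name no other allele or agent, give neither the age nor the number of mice, and describe 1 library per genotype. No test between genotypes was therefore possible: each comparison is between 2 libraries, and each interval given covers counting error only, at 95%.

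In oxygenated cells the prolyl hydroxylases EGLN1, EGLN2 and EGLN3 mark the alpha subunits of the hypoxia-inducible factors (HIF), which the VHL ubiquitin ligase then delivers to the proteasome. When oxygen is short the alpha subunit escapes this mark, pairs with ARNT and binds hypoxia response elements with the core ACGTG or GCGTG. Because HIF-1 alpha is set mainly at the protein level, its mRNA is not a reading of its activity. Macrophages in poorly perfused parts of tumours are known to carry this programme, and Spp1, which encodes osteopontin, often marks such tumour-associated macrophages. Of the 8 genes, Hif1a encodes the oxygen-regulated factor and Egln3 one of its own hydroxylases, while Vegfa encodes a secreted angiogenic factor. Hilpda encodes a lipid-droplet protein that restrains lipolysis, Ndrg1 a cytoplasmic stress protein, Bnip3 a mitochondrial receptor for mitophagy, Ero1l an oxidase of protein folding in the endoplasmic reticulum and Ddit4 (REDD1) an inhibitor of mTORC1. Ddit4 is also a known target of glucocorticoids and of the integrated stress response.

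All 8 genes are protein coding and lie apart in the genome (build mm10). Vegfa is on chromosome 17 (46016993 to 46032369, minus strand), Hilpda on chromosome 6 (29272488 to 29275446, plus strand) and Ero1l on chromosome 14 (45283087 to 45318771, minus strand). Bnip3 is on chromosome 7 (138890836 to 138909519, minus strand), Ndrg1 on chromosome 15 (66929318 to 66969640, minus strand) and Ddit4 on chromosome 10 (59949669 to 59951834, minus strand). Hif1a (73901375 to 73947530, plus strand) and Egln3 (54178981 to 54203860, minus strand) are both on chromosome 12.

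The core motifs ACGTG and GCGTG were searched on both strands in the 250 bases before the RefSeq starts (build GRCm38.p6), which were given for 7 of the 8 genes as 9 windows. Ero1l is listed there as Ero1a. The palindrome CACGTG holds ACGTG on either strand and so counts as 2 overlapping matches; it is present in the Bnip3 and Hif1a windows. The Bnip3 window had 5 matches, the windows of Ero1l and Hif1a 3 each, that of Ddit4 2 and that of Egln3 1. The 5′-most windows of Vegfa and Hilpda had 0, while the window of a second listed start of Vegfa had 2 and that of Hilpda 3. By the gene positions given above, the second Vegfa start lies 7206 bases inside the gene and the Hif1a start 6492 bases inside it. Of all 32851 such windows, of 27025 genes, 38.6% had at least 1 match and 6.58% had 3 or more. The windows of 3 genes show this range, from the most matches to none. They are printed 5′ to 3′ on the gene's strand with the matched bases in capitals; the Bnip3 window is chr7:138909507-138909756, the Egln3 window chr12:54203875-54204124 and the Vegfa window chr17:46032378-46032627, all on the minus strand.
Bnip3: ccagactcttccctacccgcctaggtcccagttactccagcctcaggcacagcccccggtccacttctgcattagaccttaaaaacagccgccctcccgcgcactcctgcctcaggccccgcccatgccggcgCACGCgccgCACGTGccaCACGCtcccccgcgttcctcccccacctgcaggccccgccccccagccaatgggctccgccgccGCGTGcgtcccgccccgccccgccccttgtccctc
Egln3: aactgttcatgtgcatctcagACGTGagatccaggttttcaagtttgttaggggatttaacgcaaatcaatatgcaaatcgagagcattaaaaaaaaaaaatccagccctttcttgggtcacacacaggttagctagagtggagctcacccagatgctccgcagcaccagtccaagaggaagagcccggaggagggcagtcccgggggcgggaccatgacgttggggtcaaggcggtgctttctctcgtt
Vegfa: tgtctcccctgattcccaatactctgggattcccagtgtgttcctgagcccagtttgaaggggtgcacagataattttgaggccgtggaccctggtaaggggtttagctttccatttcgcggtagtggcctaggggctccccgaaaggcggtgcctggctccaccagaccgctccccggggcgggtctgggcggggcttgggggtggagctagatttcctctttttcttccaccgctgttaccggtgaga
Counted from the base before the start as -1, the Bnip3 matches lie between -117 and -95 and between -35 and -31, and the Egln3 match between -229 and -225. A match describes these letters and is no evidence of binding, and the lack of one in the Vegfa window concerns this window only.

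The Vsig4 KO library held 5799 barcodes with 25119175 UMIs (unique molecular identifiers, which count captured RNA molecules), and the WT library 6929 barcodes with 28537154 UMIs; 54 barcode sequences were found in both. Cells were sorted into gates by raw UMIs of marker genes. Macrophages carried C1qa, C1qb or C1qc (213 Vsig4 KO and 338 WT cells), and monocytes their own markers with at most 1 C1q UMI (256 and 725 cells). Neutrophils carried granulocyte markers with S100a8 and S100a9 (32 and 47 cells) and lymphocytes B, T or NK cell markers (4226 and 4201 cells). The targeted gene, Vsig4, gave 1 UMI in Vsig4 KO macrophages and 36 UMIs in WT macrophages. Lyz2, a myeloid gene that no gate used, was at 7113 CPM (the gene's UMIs scaled to the same total in every gate) in Vsig4 KO macrophages and at 7821 CPM in WT macrophages, against 53.7 and 175 CPM in lymphocytes. Ptprc, the gene of the sorted CD45, was seen in 43.7% of Vsig4 KO and 55.6% of WT macrophages, and in 92.2% and 91.7% of monocytes. The neutrophil markers were at 4216 CPM in Vsig4 KO monocytes and at 1275 CPM in WT monocytes; their part in the monocyte results was not tested. In sums over a gate, fewer cells with a transcript and less transcript per cell cannot be told apart.

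Among 10 groups of cells, in which monocytes were not split by Spp1, macrophages with at least 2 Spp1 UMIs (Spp1-positive) had the highest levels of Hilpda in both libraries, at 678 CPM in Vsig4 KO cells (95% interval 594 to 771) and 761 CPM in WT cells (693 to 834). The intervals of these 2 values overlap, and both lie clear of the next highest Hilpda level, 290 CPM in WT neutrophils. In those neutrophils 1 cell held 21 of the 25 Hilpda UMIs. Among Spp1-positive macrophages 1 Vsig4 KO cell held 72 of 235 Hilpda UMIs and 1 WT cell 66 of 458. Without these 2 macrophages the Hilpda levels were 496 and 661 CPM, a Vsig4 KO over WT ratio of 0.751 (0.622 to 0.904). For Ndrg1 the highest level among these groups was again in Spp1-positive macrophages, at 121 CPM (87.4 to 164) in Vsig4 KO cells and 208 CPM (173 to 247) in WT cells. The WT value stood clear of the rest, and the Vsig4 KO value overlaps the 110 CPM of classical monocytes of that library. Monocytes with at least 2 Spp1 UMIs, which were not among these groups, had 358 CPM of Ndrg1 in Vsig4 KO and 142 CPM in WT. Their Hilpda level was 830 CPM in Vsig4 KO and 772 CPM in WT. For Vegfa, Spp1-positive macrophages reached 240 CPM (191 to 297) in the Vsig4 KO library and 395 CPM (347 to 449) in the WT library. Neutrophils, with 288 CPM (176 to 445) from 20 UMIs in the Vsig4 KO library, overlap both. Spp1-positive monocytes had 379 CPM of Vegfa in Vsig4 KO and 311 CPM in WT.

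Bnip3, Ero1l and Egln3 were spread over more myeloid groups. Bnip3 was at 176 CPM in Vsig4 KO and 257 CPM in WT Spp1-positive macrophages, at 202 and 279 CPM in neutrophils, and at 200 and 131 CPM in macrophages with no Spp1 UMI (Spp1-negative); of these neighbours, the WT Spp1-positive interval (218 to 301) lies clear of the WT Spp1-negative one (110 to 156). Of the neutrophil Bnip3 UMIs, 1 cell held 8 of 14 in Vsig4 KO and 1 cell 18 of 24 in WT. Without these cells Bnip3 was at 91.4 and 72.5 CPM in neutrophils. Ero1l had its highest value, 562 CPM (399 to 768), in Vsig4 KO neutrophils, but 76.9% of those 39 UMIs came from 1 cell. In the groups other than neutrophils, Ero1l reached 254 CPM (215 to 298) in WT Spp1-positive macrophages and 192 CPM (176 to 209) in WT classical monocytes. These intervals do not overlap each other or that of WT T cells (51.2 CPM, 45.3 to 57.6). Spp1-positive monocytes, not among the groups, had 420 CPM of Ero1l in Vsig4 KO and 474 CPM in WT. Egln3 was at 101 CPM in Vsig4 KO and 128 CPM in WT neutrophils and at 92.4 and 83.0 CPM in Spp1-positive macrophages, while B cells had 0.603 and 1.13 CPM, on 4 and 6 UMIs. The neutrophil values rest on 7 and 11 UMIs and overlap those of Spp1-positive macrophages.

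Hif1a and Ddit4 were broad and ordered differently. Among the same groups, Hif1a ranged within 76.9 to 273 CPM in the Vsig4 KO library and 87.9 to 247 CPM in the WT library. It was lowest in B cells and highest in classical monocytes in both. Spp1-positive monocytes, not among the groups, had 358 CPM of Hif1a in Vsig4 KO and 341 CPM in WT. T cells, at 250 and 229 CPM, overlap classical monocytes in Hif1a level, so the 2 ends of its order held lymphocytes of different kinds. Ddit4 was highest in conventional dendritic cells, at 344 CPM (320 to 369) in Vsig4 KO cells and 250 CPM (234 to 267) in WT cells, and the first of these stands clear of every other value. Spp1-positive macrophages, at 104 and 69.7 CPM of Ddit4, lay in the lower part of its order.

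Among lymphocytes, Vegfa was found mostly in 1 subset. It was at 104 CPM (88.2 to 123) in Vsig4 KO and 100 CPM (85.9 to 116) in WT cells with NK cell or ILC1 markers, levels that overlap those of classical monocytes (94.6 and 117 CPM). These cells made up 9.20% of gated lymphocytes in the Vsig4 KO library and 12.7% in the WT library, but gave 69.0% and 61.0% of the lymphocyte Vegfa UMIs. T cells had 2.38 and 6.12 CPM of Vegfa and B cells 5.28 and 8.84 CPM. When each cell was thinned to 1000 UMIs, so that depth was equal, a Vegfa UMI was found in 10.3% of Vsig4 KO and 8.56% of WT cells of the NK and ILC1 gate, against 0.450% and 0.373% of B cells. How much of either share came from free RNA was not measured. T cells, which were 33.5% and 32.8% of gated lymphocytes, gave 59.1% and 57.9% of the Hilpda UMIs and 79.5% and 75.8% of the Egln3 UMIs. They also gave 60.6% and 53.6% of the Ero1l UMIs and 63.6% and 59.0% of the Hif1a UMIs.

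**Figure D1:**
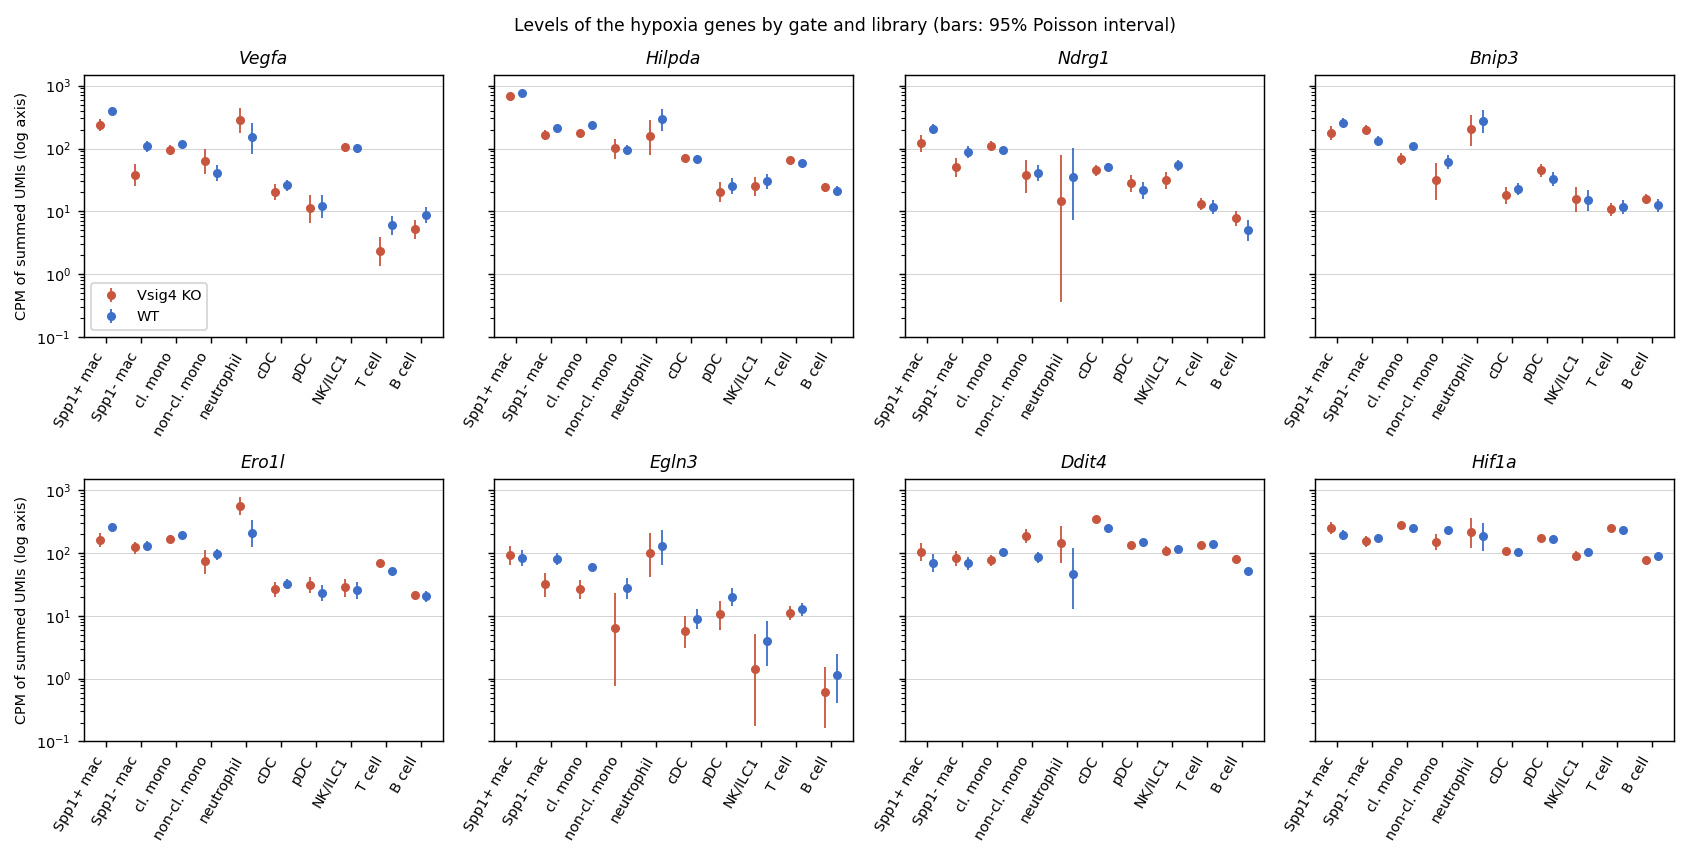
Level of each gene in CPM (log axis) in 10 groups of cells, with Vsig4 KO in red to the left of WT in blue and bars for the 95% Poisson interval. Hilpda peaks in Spp1-positive macrophages at 678 CPM in Vsig4 KO and 761 CPM in WT, Vegfa has a second high group in NK cells and ILC1 (104 and 100 CPM), and Ddit4 peaks in conventional dendritic cells (344 and 250 CPM).

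Within macrophages, Vegfa, Hilpda and Ndrg1 were higher in Spp1-positive than in Spp1-negative cells in both libraries. There were 36 Spp1-positive and 164 Spp1-negative macrophages in the Vsig4 KO library, and 73 and 244 in the WT library; 13 and 21 macrophages with exactly 1 Spp1 UMI were left out. In the Vsig4 KO library Vegfa was at 240 CPM in Spp1-positive and 38.6 CPM in Spp1-negative macrophages, a ratio of 6.21 (3.98 to 9.97). In the WT library the Vegfa values were 395 and 109 CPM, a ratio of 3.63 (2.88 to 4.61). Hilpda was at 678 and 166 CPM in the Vsig4 KO library (ratio 4.09, 3.26 to 5.16) and at 761 and 208 CPM in the WT library (ratio 3.65, 3.09 to 4.33). Ndrg1 was at 121 and 50 CPM in the Vsig4 KO library (ratio 2.42, 1.51 to 3.91) and at 208 and 89.3 CPM in the WT library (ratio 2.33, 1.75 to 3.09). All 6 intervals lie above 1.5, the fold used here to call a gene higher or lower (with at least 20 UMIs over the groups compared).

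The other 5 genes were called in 1 library or in neither. Egln3 was higher in Spp1-positive cells of the Vsig4 KO library (92.4 against 31.4 CPM, ratio 2.94, 1.65 to 5.31) but not of the WT library (83.0 against 80.0 CPM, ratio 1.04, 0.712 to 1.5). Bnip3 showed the opposite arrangement, at 176 against 200 CPM in the Vsig4 KO library (ratio 0.880, 0.641 to 1.2) and 257 against 131 CPM in the WT library (ratio 1.96, 1.54 to 2.50). Ero1l was at 162 against 121 CPM in the Vsig4 KO library (ratio 1.33, 0.932 to 1.89) and 254 against 129 CPM in the WT library (ratio 1.97, 1.54 to 2.51). These differences between the libraries were not tested. Hif1a had ratios of 1.66 (1.23 to 2.22) in the Vsig4 KO library and 1.12 (0.878 to 1.43) in the WT library, and Ddit4 was called in neither (104 against 81.5 CPM in the Vsig4 KO library and 69.7 against 68.7 CPM in the WT library). Without the cell with most Hif1a UMIs in each group, the Hif1a ratio in the Vsig4 KO library was 1.43 (1.03 to 1.97), under the fold. In each library 5 of the 8 genes were at least 1.5-fold higher, where 13.5% of all genes measured were in the Vsig4 KO library and 11.7% in the WT library; 3 of 8 were higher in both, where 4.3% of genes were. None of the 8 was lower, with 0 of 8 in the Vsig4 KO library, where 19.8% of all genes were, and 0 of 8 in the WT library, where 18.1% were. The contrasts between the libraries did not hold under every setting. When the top 6% of barcodes by UMIs were left out, 6 genes were higher in both libraries, now with Egln3 (4.02 in Vsig4 KO and 2.88 in WT), Ero1l (2.36 and 2.40) and Ddit4 (2.06 and 2.01). By the mean CPM of single cells 7 were, all but Bnip3 (1.24 in Vsig4 KO). Ddit4 was at 2.55 and 1.65 and Egln3 at 3.05 and 1.84 by that mean. No share of all genes is given for either setting, so these counts cannot be set against the 4.3%.

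Spp1-positive cells were also deeper than Spp1-negative cells, with median UMIs of 8616 against 2846 in the Vsig4 KO library and 7623 against 2707 in the WT library, and a cell with more UMIs passes a gate of 2 Spp1 UMIs more easily. Detection of the genes was compared again at 1000 UMIs per cell. This depth was reached by 35 Spp1-positive and 144 Spp1-negative Vsig4 KO cells and by 73 and 216 WT cells. The Spp1 gate stayed on raw UMIs, so thinning evened out detection but not the effect of depth on entry to the gate. A Vegfa UMI was then found in 20.0% of Spp1-positive against 2.78% of Spp1-negative cells in the Vsig4 KO library, and in 30.1% against 4.63% in the WT library. The Hilpda shares were 31.4% against 8.33% in the Vsig4 KO library and 39.7% against 9.72% in the WT library. For neither gene do the intervals of the 2 groups overlap, and B cells gave 0.450% and 0.373% for Vegfa and 2.80% and 1.87% for Hilpda. Ndrg1 shares had overlapping intervals at this depth (8.57% against 6.94% in the Vsig4 KO library and 9.59% against 6.02% in the WT library). Before thinning, Ndrg1 was seen in 50% against 10.4% of Vsig4 KO cells and 45.2% against 13.1% of WT cells. Kupffer cell markers (Clec4f, Timd4, Vsig4, Cd5l and Marco together) summed to 0 UMIs in Spp1-positive and 288 UMIs in Spp1-negative Vsig4 KO macrophages, and to 18 UMIs (of 1 of the 5 markers) and 309 UMIs in WT ones, while no erythroid marker was found in Spp1-positive macrophages of either library; the part of cell make-up in these ratios was not tested.

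**Figure D2:**
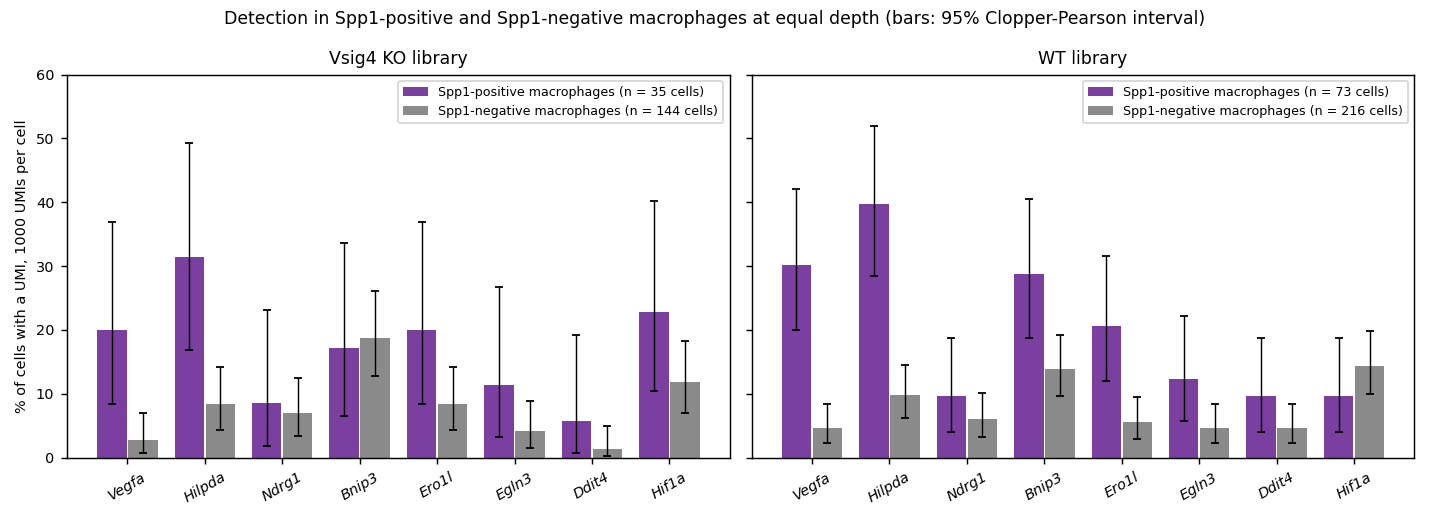
Share of macrophages (percent) with a UMI of each gene after thinning to 1000 UMIs per cell, Spp1-positive in purple left of Spp1-negative in grey, Vsig4 KO in the left panel and WT in the right, with bars for the 95% Clopper-Pearson interval. For Vegfa the shares are 20.0% against 2.78% in Vsig4 KO and 30.1% against 4.63% in WT, while those of Ndrg1 lie between 6.02% and 9.59%.

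A small part of the macrophages held most of the Vegfa and Hilpda. Spp1-positive cells were 16.9% of macrophages in the Vsig4 KO library and 21.6% in the WT library and gave 31.7% and 34.8% of all macrophage UMIs. They gave 74.8% and 66.1% of the Vegfa UMIs and 66.6% and 66.4% of the Hilpda UMIs. Their part of the Ndrg1 UMIs was 50.6% and 55.3%. For Ddit4, at 38.3% and 35.3%, it was near their part of all UMIs.

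Within monocytes, 7 of the 8 genes were higher with Spp1 in both libraries. At least 2 Spp1 UMIs were found in 13 of 256 Vsig4 KO monocytes (5.08%, 2.73 to 8.53) and in 75 of 725 WT monocytes (10.3%, 8.22 to 12.8). Against Spp1-negative monocytes, Hilpda was at 830 against 125 CPM in the Vsig4 KO library (ratio 6.63, 5.04 to 8.67) and 772 against 116 CPM in the WT library (ratio 6.65, 5.75 to 7.70). Bnip3 was at 266 against 47.0 CPM (ratio 5.67, 3.46 to 9.02) and at 319 against 60.9 CPM (ratio 5.25, 4.22 to 6.51). Egln3 was at 102 against 16.6 CPM (ratio 6.17, 2.64 to 13.4) in the Vsig4 KO library, on 10 UMIs in the first group, and at 171 against 33.1 CPM (ratio 5.17, 3.83 to 6.95) in the WT library. Bnip3 and Egln3 were thus called in both libraries in monocytes, and in 1 library each in macrophages. Vegfa (5.83 and 4.34), Ero1l (5.06 and 4.12) and Ndrg1 (5.46 and 2.02) also had ratios above 1.5 in both libraries, and so did Hif1a (1.55 and 1.53). Ddit4 was at 71.7 against 102 CPM in the Vsig4 KO library (ratio 0.706, on 7 UMIs) and 169 against 90.4 CPM in the WT library (ratio 1.87, 1.44 to 2.40). In all, 7 of 8 genes were at least 1.5-fold higher in the Vsig4 KO library, where 18.7% of all genes were, and 8 of 8 in the WT library, where 11.5% were; 7 of 8 were higher in both, where 4.93% of genes were. None of the 8 was lower, where 36.7% of all genes in the Vsig4 KO library and 31% in the WT library were. The Vsig4 KO values rest on 13 cells. Without the cell with most Hif1a UMIs in each group, the Hif1a ratio was 1.40 (0.917 to 2.06) in the Vsig4 KO library and 1.45 (1.21 to 1.74) in the WT library, under the fold in both. Erythroid markers summed to 0 UMIs in Spp1-positive and Spp1-negative Vsig4 KO monocytes, but to 505 UMIs (1068 CPM) in Spp1-positive and 4 UMIs in Spp1-negative WT monocytes, and their part in the WT ratios was not tested.

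In part of the Spp1-positive macrophages, 2 or more of the genes had a UMI in the same cell. More cells hold 2 genes where each gene is more abundant, and the share expected from the levels alone was not calculated. Of 7 genes (Hif1a, the factor itself, was not counted), 2 or more had a UMI at 1000 UMIs per cell in 8 of 35 Vsig4 KO cells (22.9%, 10.4 to 40.1) and in 32 of 73 WT cells (43.8%, 32.2 to 55.9). Spp1-negative macrophages gave 14 of 144 Vsig4 KO cells (9.72%, 5.42 to 15.8) and 27 of 216 WT cells (12.5%, 8.40 to 17.7). In WT the intervals of the Spp1 groups are apart, and in Vsig4 KO they overlap. At least 1 gene was found in 71.4% of Vsig4 KO and 69.9% of WT Spp1-positive cells, and 3 or more genes were found in 11.4% and 23.3%. The intervals of the Vsig4 KO and WT shares for 2 or more genes overlap, and without thinning the shares were 80.6% and 74.0%; at 2000 UMIs per cell they were 55.9% in both libraries. Co-detection therefore gave no difference between the libraries that held across depths. Among Spp1-positive monocytes, 6 of 12 Vsig4 KO and 27 of 68 WT cells had 2 or more, against 6.76% and 5.56% of Spp1-negative ones. B cells had 0.699% and 0.480%.

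**Figure D3:**
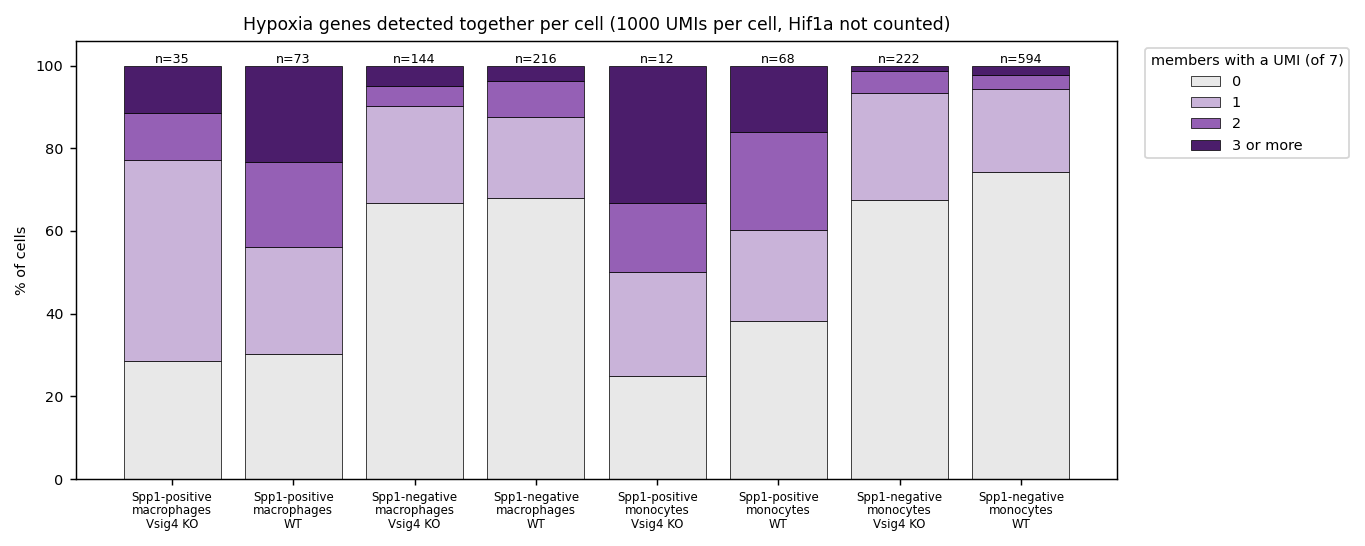
Share of cells (percent) in which 0, 1, 2 or at least 3 of the 7 genes had a UMI at 1000 UMIs per cell, for Spp1-positive and Spp1-negative macrophages and monocytes, Vsig4 KO left of WT in each pair, with the number of cells above each bar. The darker parts (2 or more genes) are larger in the Spp1-positive bars, for example 43.8% against 12.5% in WT macrophages.

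Pairs of genes were also counted in the same cell. Among all macrophages at 1000 UMIs, Hilpda had a UMI in 5 of 11 cells with Vegfa (45.5%, 16.7 to 76.6) against 10.0% of those without in the Vsig4 KO library. In the WT library it had one in 17 of 32 (53.1%, 34.7 to 70.9) against 12.6% (8.93 to 17.1). Within WT Spp1-positive macrophages alone, Hilpda was found in 13 of 22 cells with Vegfa (59.1%, 36.4 to 79.3) against 16 of 51 without (31.4%, 19.1 to 45.9). The Bnip3 shares were 50% (28.2 to 71.8) against 19.6% (9.82 to 33.1), and those of Ero1l 40.9% (20.7 to 63.6) against 11.8% (4.44 to 23.9). For each of these genes the 2 intervals overlap. Ndrg1 was found there in 9.09% against 9.80%. In Vsig4 KO Spp1-positive macrophages only 7 cells had a Vegfa UMI; 4 of them had Hilpda and 1 had Bnip3, too few to set against the 25% and 17.9% among cells without Vegfa.

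Between genotypes, Vegfa, Ndrg1 and Egln3 were lower in Vsig4 KO than in WT macrophages. Vegfa gave 111 UMIs, or 101 CPM (83.5 to 122), in Vsig4 KO macrophages and 360 UMIs, or 208 CPM (187 to 231), in WT macrophages, a ratio of 0.487 (0.390 to 0.604). Ndrg1 was at 75.9 CPM in Vsig4 KO and 131 CPM in WT macrophages (ratio 0.580, 0.445 to 0.749). Egln3 was at 50.3 CPM in Vsig4 KO and 78.1 CPM in WT macrophages (ratio 0.643, 0.461 to 0.887). These were 3 of 8 genes at least 1.5-fold lower, where 10.8% of all genes measured in macrophages were, and 0 of 8 were higher, where 7.05% were. Ero1l (131 and 170 CPM, ratio 0.771, 0.627 to 0.945) and Hilpda (323 and 399 CPM, ratio 0.808, 0.709 to 0.920) had intervals below 1 but missed the fold. Bnip3 (198 and 175 CPM, ratio 1.13), Ddit4 (85.9 and 68.9 CPM, ratio 1.25) and Hif1a (177 and 181 CPM, ratio 0.982) had intervals that include 1.

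Single cells weighed on these sums. In the Vsig4 KO library 1 macrophage held 28.8% of the Vegfa UMIs, and in the WT library 1 held 10.0%; without the top cell of each, the Vegfa ratio was 0.387 (0.299 to 0.496). The same step gave 0.724 (0.626 to 0.835) for Hilpda, 0.589 for Ndrg1 and 0.569 (0.395 to 0.806) for Egln3, so the 3 called genes were past the fold without those cells too. When the top 6% of barcodes by UMIs were left out, 1 of the 3 called genes was another: Egln3 was at 0.877, short of the fold, while Hilpda was at 0.529, past it. Hif1a was at 0.695 by that step, and with 10 CPM added to both sides Egln3 was at 0.684, short of the fold again. At 1000 UMIs per cell, Vegfa was detected in 5.76% (2.91 to 10.1) of Vsig4 KO and 10.3% (7.17 to 14.3) of WT macrophages, intervals that overlap. Erythroid markers were at 36.6 CPM in Vsig4 KO and 0.579 CPM in WT macrophages, melanoma markers at 43.9 and 26.0 CPM and hepatocyte markers at 15.5 and 15.6 CPM. The part of these in the ratios was not tested.

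Vegfa and Ndrg1 were lower in Vsig4 KO on both sides of the Spp1 gate. In Spp1-positive macrophages Vegfa had a Vsig4 KO to WT ratio of 0.606 (0.466 to 0.781), Ndrg1 of 0.584 (0.402 to 0.835) and Ero1l of 0.636 (0.460 to 0.870), 3 of 8 genes lower, where 14.5% of all genes were, and 0 of 8 were higher, where 10.2% were. A single Vsig4 KO cell held 38.6% of the Vegfa UMIs of this group. In Spp1-negative macrophages Vegfa had a ratio of 0.355 (0.223 to 0.546), Ndrg1 of 0.560 (0.367 to 0.839) and Egln3 of 0.393 (0.233 to 0.637), 3 of 8 lower, where 11.7% were. In Spp1-positive cells the Egln3 ratio was 1.11 (0.691 to 1.77), and the difference between the Spp1 groups was not tested. Bnip3 was at 176 and 257 CPM in Spp1-positive cells (ratio 0.684, 0.500 to 0.926) and at 200 and 131 CPM in Spp1-negative cells (ratio 1.52, 1.19 to 1.95), ratios on opposite sides of 1 that gave 1.13 over all macrophages. Bnip3 was the 1 of 8 genes higher in Spp1-negative cells, where 9.84% of all genes were.

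**Figure D4:**
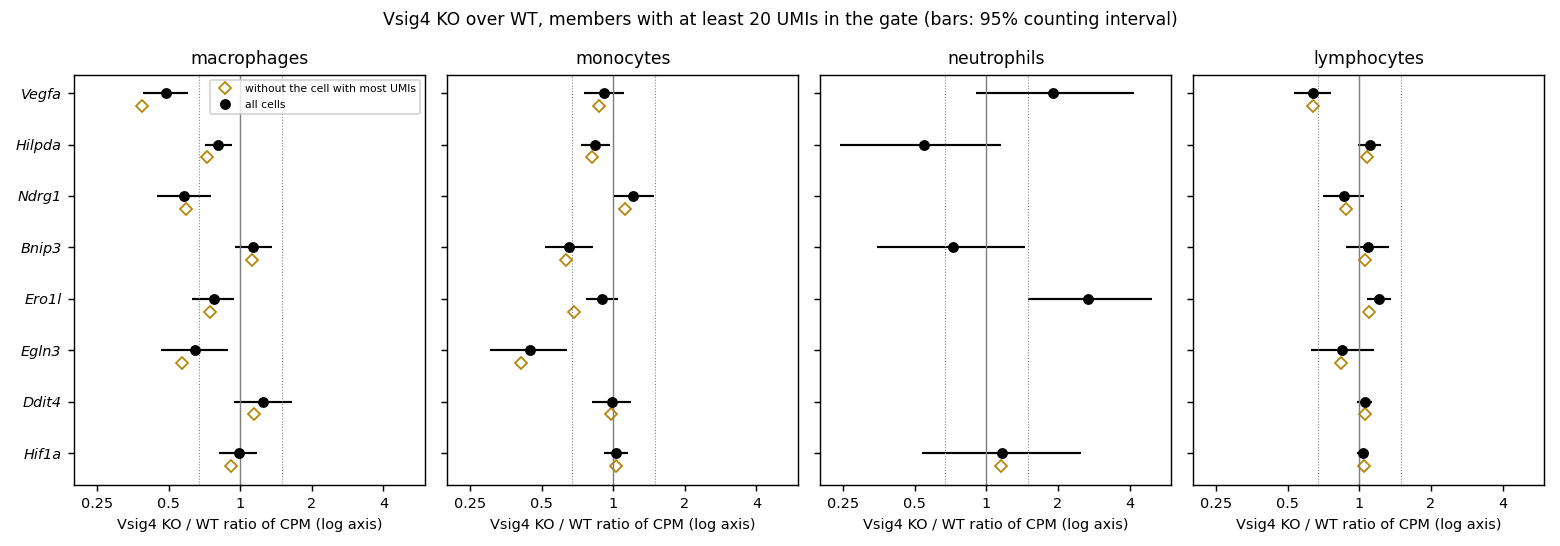
Vsig4 KO over WT ratio of CPM (log axis) for genes with at least 20 UMIs in 4 gates, black points with bars for the 95% counting interval and open diamonds for the ratio without the cell with most UMIs of that gene in each library; dotted lines mark 1.5-fold. In macrophages Vegfa (0.487), Ndrg1 (0.580) and Egln3 (0.643) lie left of the lower line, and in neutrophils the bars are wide.

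In monocytes, Egln3 and Bnip3 were lower in Vsig4 KO. Egln3 was at 22.5 CPM (15.7 to 31.1) in Vsig4 KO monocytes and 50.5 CPM (43.7 to 58.1) in WT monocytes, a ratio of 0.445 (0.303 to 0.638). Bnip3 was at 61.2 and 93.8 CPM (ratio 0.652, 0.517 to 0.817). These were 2 of 8 genes lower, where 9.31% of all genes were, and 0 of 8 were higher, where 7% were. Vegfa was at 91.2 and 99.5 CPM (ratio 0.917, 0.753 to 1.11), and whether this ratio differs from the 0.487 of macrophages was not tested. Hif1a was at 249 and 242 CPM (ratio 1.03). Ddit4 was at 97.4 and 99.2 CPM (ratio 0.982), but its ratio was 0.792 with doubled marker UMIs for a gate, 1.33 without the top 6% of barcodes by UMIs and 1.48 by the mean CPM of single cells. Ndrg1 was at 94.3 and 77.7 CPM (ratio 1.21, 0.992 to 1.48) and Hilpda at 165 and 196 CPM (ratio 0.841, 0.728 to 0.968). Ero1l was at 146 and 163 CPM (ratio 0.899), with 29.9% of the Vsig4 KO UMIs in 1 cell, and its ratio without the top cell of each library was 0.681 (0.570 to 0.812). Without the top 6% of barcodes, the ratios of Vegfa (1.24), Hilpda (1.02) and Ero1l (1.21) were above 1 and 1 gene instead of 2 was called.

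Since Spp1-positive cells were a smaller part of Vsig4 KO than of WT monocytes, the same ratios were taken on either side of the Spp1 gate. In Spp1-negative monocytes Egln3 was at 16.6 CPM in Vsig4 KO and 33.1 CPM in WT (ratio 0.500, 0.308 to 0.784), and Bnip3 at 47.0 and 60.9 CPM (ratio 0.772, 0.578 to 1.02). Of the 8 genes 1 was lower there, where 10.3% of all genes were, and 0 were higher, where 6.98% were. In Spp1-positive monocytes 1 of 8 was higher, where 19% of all genes were: Ndrg1, with a ratio of 2.53 (1.63 to 3.86) and 35 UMIs in 13 Vsig4 KO cells. In those cells 2 of 8 were lower, where 20.2% were: Ddit4 (ratio 0.424, 0.165 to 0.914, on 7 Vsig4 KO UMIs) and Egln3 (ratio 0.598, 0.276 to 1.16). By subset, Ddit4 ratios lay on opposite sides of 1: 76.5 CPM in Vsig4 KO and 104 CPM in WT classical monocytes (ratio 0.732, 0.575 to 0.924), and 187 and 85.5 CPM in non-classical monocytes (ratio 2.19, 1.55 to 3.05). In classical monocytes 2 of 8 genes, Egln3 and Bnip3, were lower, where 9.69% of all genes were, and 0 were higher, where 7.2% were. In non-classical monocytes 3 of 8 were lower, where 16.2% were: Hif1a (149 and 231 CPM, ratio 0.643, 0.461 to 0.880), Bnip3 (ratio 0.516) and Egln3 (on 2 Vsig4 KO UMIs). Ddit4 and Vegfa made 2 of 8 higher there, where 12.9% were, and the Vegfa ratio of 1.55 was 1.004 without the top cell of each library. S100a8 was at 2042 CPM in Vsig4 KO and 506 CPM in WT monocytes, and erythroid markers at 0 UMIs and 509 UMIs (130 CPM); their part in these ratios was not tested.

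Neutrophils were too few for a firm value. Only 5 of the 8 genes reached 20 UMIs; 2 of these were at least 1.5-fold higher in Vsig4 KO, where 17.2% of the genes measured were, and 1 was lower, where 20.4% were. Ero1l had 39 UMIs in Vsig4 KO and 18 UMIs in WT neutrophils (562 and 209 CPM, ratio 2.69, 1.5 to 4.99), of which 1 cell gave 76.9% in the Vsig4 KO library and 1 cell 77.8% in the WT library. Vegfa had 20 and 13 UMIs (288 and 151 CPM, ratio 1.91, 0.903 to 4.17) and Hilpda 11 and 25 UMIs (158 and 290 CPM, ratio 0.545, 0.242 to 1.15). Without the top cell of each gene, 0 genes remained past the fold with 20 UMIs. Bnip3 (202 and 279 CPM) and Hif1a (216 and 186 CPM) were not called.

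In lymphocytes 7 of the 8 genes were within 1.5-fold. Vegfa was the exception, at 12.9 CPM (11.2 to 14.7) in Vsig4 KO and 20.3 CPM (18.0 to 22.7) in WT lymphocytes, a ratio of 0.635 (0.529 to 0.761). It was 1 of 8 genes lower, where 5.47% of all genes were, and 0 of 8 were higher, where 5.41% were. In the NK and ILC1 gate, which held most of this Vegfa, the ratio was 1.04 (0.832 to 1.31), while it was 0.389 (0.196 to 0.737) in T cells on 15 and 33 UMIs and 0.597 (0.374 to 0.944) in B cells on 35 and 47 UMIs. Without the top cell of each library the B cell ratio was 0.675 (0.408 to 1.11), short of the fold. The same step gave 0.484 (0.225 to 0.996) in T cells, where 1 WT cell held 10 of the 33 UMIs. Vegfa was 1 of 8 genes lower in T cells, where 5.2% of all genes were, and 1 of 7 in B cells, where 5.03% were; in T cells 0 were higher, where 5.3% were. Cells of the NK and ILC1 gate were also a smaller part of Vsig4 KO than of WT lymphocytes, as given above. In that gate Ndrg1 was at 31.7 CPM in Vsig4 KO and 54.3 CPM in WT (ratio 0.584, 0.399 to 0.843), 1 of 7 genes lower, where 7.72% of all genes were, and 0 were higher, where 6.37% were.

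Ddit4 was past the fold in B cells and not in T cells or in NK cells and ILC1, and the difference between these types was not tested. In B cells it was at 79.2 CPM (72.5 to 86.2) in Vsig4 KO and 51.0 CPM (45.1 to 57.4) in WT (ratio 1.55, 1.34 to 1.80). With Ndrg1 (7.84 and 5.08 CPM, ratio 1.54, 0.952 to 2.56) it made 2 of 7 genes higher, where 6.04% of all genes were. The Ndrg1 interval includes 1. In T cells Ddit4 was at 132 and 138 CPM (ratio 0.957, 0.866 to 1.06), and in NK cells and ILC1 at a ratio of 0.917 (0.738 to 1.14). Conventional dendritic cells had 344 and 250 CPM of Ddit4 (ratio 1.37, 1.25 to 1.51), below the fold. Ero1l in T cells was at 68.1 and 51.2 CPM (ratio 1.33, 1.14 to 1.55), and without the top cell of each library at a ratio of 1.14 (0.968 to 1.35). Hif1a in T cells was at 250 and 229 CPM (ratio 1.09), with an interval just above 1.

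Other genes of the pathway were set beside the 8 in macrophages, as counts and medians of log2((CPM + 10)/(CPM + 10)), Vsig4 KO over WT; over all 8156 genes measured this median was -0.02, and over the 8 genes -0.33. Of all genes measured 7.05% were called higher and 10.8% lower, the background for each count of a list here. Of 30 HIF targets other than glycolysis 22 were measured and 9 of them had a ratio above 1; 2 were higher and 2 lower, with a median of -0.07. Those higher, named after their values were seen, were Adm, which encodes the peptide adrenomedullin (28 UMIs in Vsig4 KO and 10 UMIs in WT, ratio 4.42, 2.09 to 10.2), and P4ha2, a subunit of a collagen prolyl hydroxylase (14 and 7 UMIs, ratio 3.16, 1.19 to 9.25). Ankrd37 was at 31.1 CPM in Vsig4 KO and 64.2 CPM in WT macrophages (ratio 0.484, 0.319 to 0.716), and Slc2a1, which encodes the glucose transporter GLUT1, at 167 and 216 CPM (ratio 0.775, 0.646 to 0.927). The mitochondrial protein genes Higd1a (ratio 0.742) and Fam162a (ratio 0.765) had values below 1. Of the 13 glycolytic enzyme genes 11 had ratios above 1, but 0 were called higher and 1 was lower, and the median was 0.19. Aldoa, encoding aldolase, was at 1485 and 1160 CPM (ratio 1.28, 1.2 to 1.37) and Hk1, a hexokinase gene, at 29.2 and 45.7 CPM (ratio 0.640, 0.410 to 0.976). Of 11 genes of the HIF machinery, which include Hif1a and Egln3, 7 were measured, 1 was higher (Cited2, an inhibitor of HIF binding to p300, 208 and 134 CPM, ratio 1.55, 1.29 to 1.87) and 1 lower (Egln3), with a median of -0.02.

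The integrated stress response, the glucocorticoid response and the tumour macrophage genes served as neighbours of the programme, with the same background of 7.05% higher and 10.8% lower. Of 11 stress response genes 8 were measured with 0 called and a median of -0.21, among them Xbp1 (92.3 and 135 CPM, ratio 0.682, 0.534 to 0.865) and the chaperone gene Hspa5 (827 and 979 CPM, ratio 0.845). Of 5 glucocorticoid response genes 3 were higher and 0 lower, with a median of 0.52; Per1 was at 101 and 57.3 CPM (ratio 1.77, 1.34 to 2.35) and Fkbp5 at 37.5 and 23.1 CPM (ratio 1.62, 1.02 to 2.57), but Tsc22d3 at 70.4 and 74.1 CPM (ratio 0.950). Of 12 tumour macrophage genes 0 were higher and 1 lower (Cd9, 217 and 331 CPM, ratio 0.654, 0.560 to 0.763), with a median of 0.08, and Trem2 had a ratio of 1.34. Of 12 genes of dissociation stress 0 were higher and 1 was lower, 3 had ratios above 1 and the median was -0.41; their part in the values of the 8 genes was not tested.

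Along the Spp1 gate, more HIF targets were called higher than lower in both libraries. In Spp1-positive over Spp1-negative macrophages 10 of 18 measured HIF targets were higher in the Vsig4 KO library (median 0.59) and 10 of 19 in the WT library (median 0.66), where 13.5% and 11.7% of all genes were, with 0 lower in either; over all genes the medians were -0.07 and -0.06, and over the 8 genes 0.91 and 0.92. Ankrd37 had ratios of 3.37 in the Vsig4 KO library and 2.51 in the WT library, and Slc2a1 of 2.67 and 1.81. Of the 13 glycolytic genes 1 was higher in the Vsig4 KO library (median 0.47) and 8 in the WT library (median 0.59). Of the integrated stress response genes 0 of 7 and 1 of 8 were higher (Hspa5 in the WT library, ratio 1.88), and of 3 measured glucocorticoid genes 0 were higher in either library. Of the 12 tumour macrophage genes 7 were higher in each library, with medians of 1.04 in the Vsig4 KO library and 0.88 in the WT library. In that list 1 gene was lower in the Vsig4 KO library and 0 in the WT library. Spp1, which sets the gate, was not left out of these list counts. In monocytes all 13 glycolytic genes were at least 1.5-fold higher with Spp1 in both libraries (medians 1.31 and 1.23), where 18.7% of all genes in the Vsig4 KO library and 11.5% in the WT library were.

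**Figure D5:**
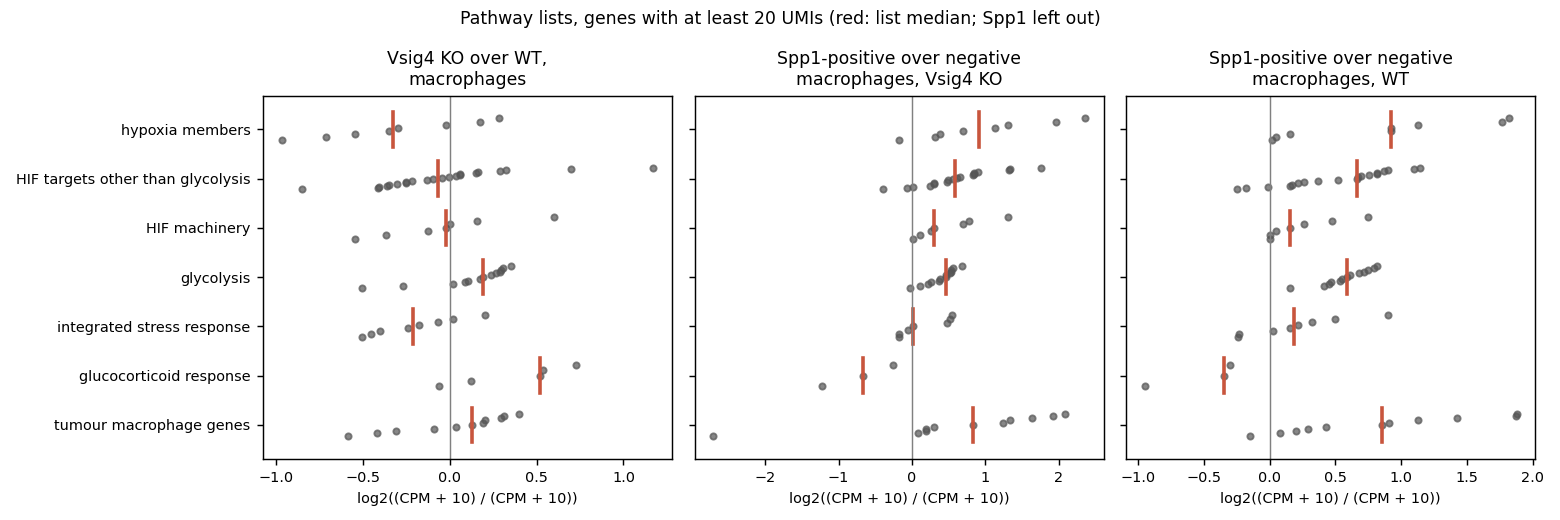
Genes of each list as points on the scale of log2((CPM + 10)/(CPM + 10)), with the list median in red, for Vsig4 KO over WT macrophages and for Spp1-positive over Spp1-negative macrophages of either library; Spp1 itself is left out. The medians of the hypoxia genes and of the other HIF targets lie to the right of 0 along the Spp1 gate (0.91 and 0.59 in Vsig4 KO, 0.92 and 0.66 in WT), while between genotypes the 8 hypoxia genes have a median of -0.33.

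The genes whose level was most like each member over the 20 profiles (10 groups of cells in 2 libraries) were found by Pearson's r of log2(CPM + 10) among 11458 genes, as a description, since profiles of a library share its preparation and depth. Hilpda was nearest to the glycolytic genes Pgk1 (0.94) and Eno1 (0.93) and to Lhfpl2 (0.93). Vegfa was nearest to Card19 (0.89), Slc2a1 (0.88) and Por (0.88), and Ero1l to Glrx (0.93), C5ar1 (0.92) and Slc2a1 (0.92). Bnip3 was nearest to Gabarap (0.95) and the ferritin genes Fth1 (0.95) and Ftl1 (0.94). Egln3 was nearest to Bnip3 itself (0.92), then Cxcl3 (0.90) and Ftl1-ps1 (0.89), a pseudogene copy whose reads the ferritin gene could share. Ndrg1 was nearest to Errfi1 (0.86), Mapk3 (0.86) and Ccl9 (0.85), and Hif1a, less closely, to Glrx (0.78), Furin (0.75) and Vsir (0.75). Ddit4 stood apart: its r with the 7 other members lay between -0.43 and -0.08, and its nearest genes were L1cam (0.84), Marveld1 (0.83) and Nlgn2 (0.80).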

How the data were processed

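Sequencing reads were aligned and counted by the authors with Cell Ranger 7.1.0 on mm10, per the submitters' processing notes, and the deposited matrices hold raw whole-number UMI counts for each barcode, not normalized. Barcodes with at least 500 UMIs, at least 200 genes and at most 10% mitochondrial UMIs were kept (5746 Vsig4 KO and 6872 WT), of which 82.3% and 77.3% fell into 4 gates. A gate asked for at least 2 UMIs of its own markers (3 of C1q for macrophages). Macrophages and monocytes could have at most 1 UMI each of B, T, NK and conventional dendritic cell markers and of Siglech. Monocytes, neutrophils and lymphocytes could have at most 1 C1q UMI. Monocyte and neutrophil markers were not limited in macrophages, nor neutrophil markers in monocytes that missed the neutrophil gate. A lymphocyte could carry markers of more than 1 lymphocyte type. No doublet caller was run, and barcodes of very high UMIs were left out as an alternative. UMIs were summed per gate and scaled to CPM of the gate sum. Ratios carry exact conditional binomial intervals, CPM exact Poisson and shares Clopper-Pearson intervals, at 95%. A gene was called at 1.5-fold with at least 20 UMIs over both groups; with 1 library per genotype there is no p-value. Cells were thinned to 1000 UMIs in 1 random draw, leaving out shallower cells. The calculation of ratios was tested on simulated data. All 8 members are named in every gate, and of the lists up to 4 genes per list with at least 50 UMIs and the ratio farthest from 1 in macrophages, plus the 3 genes of highest r per member among those with at least 100 UMIs. The members and lists were chosen with earlier results of these data known. Gene positions are from GENCODE (mm10) and promoter windows from RefSeq (GRCm38.p6). Versions were Python 3.11.15, numpy 2.4.6, scipy 1.17.1 and matplotlib 3.10.9.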

Additional observations from a re-analysis of the deposited data

Results flagged for a closer look

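Ero1l had Vsig4 KO over WT ratios on opposite sides of 1 in different gates. The ratio was 2.69 (1.5 to 4.99) in neutrophils and 1.2 (1.07 to 1.35) in lymphocytes, against 0.771 (0.627 to 0.945) in macrophages, and none of these intervals includes 1. The differences between gates were not tested. In Vsig4 KO cells, 1 neutrophil held 76.9% and 1 lymphocyte 12.4% of the Ero1l UMIs of its gate; without the top cell of each library the lymphocyte ratio was 1.1 (0.974 to 1.24), and neutrophils kept only 9 Vsig4 KO and 4 WT UMIs.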

How the results depend on the processing

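The count of hypoxia genes at least 1.5-fold apart in macrophages was 2 or 3 over 12 settings, but not always of the same genes: without the top 6% of barcodes by UMIs Egln3 (0.877) lost its call and Hilpda (0.529) gained one, and with 10 CPM added to both sides Egln3 was at 0.684. In monocytes the count of 2 became 1 without the top 6% of barcodes by UMIs, with 10 CPM added to both sides, or by the mean CPM of single cells. In neutrophils the count of 3 became 5 with no minimum of UMIs and 0 without the cell with most UMIs of the member. In lymphocytes the count of 1 became 0 with doubled marker UMIs or 10 CPM added. The 3 genes higher in Spp1-positive macrophages of both libraries became 6 without the top 6% of barcodes and 7 by the mean CPM of single cells. For none of these alternative settings is a share of all genes given, so their counts have no background here. Spp1-positive macrophages with 2 or more genes were 55.9% in Vsig4 KO at 2000 UMIs per cell, and 80.6% in Vsig4 KO and 74.0% in WT without thinning; more UMIs per cell give more detected genes. The cause of the other shifts was not tested. Of 521 values for single genes under alternatives, 484 moved by less than their counting interval and 37 moved more; Ddit4 in macrophages crossed 1, at 0.919 by the mean CPM of single cells. No called gene changed direction. The mean CPM of single cells, leaving out barcodes found in both libraries and leaving out the cell with most UMIs were chosen after seeing the data. No paired analysis was possible because each genotype has 1 library. With 1 library per genotype, mouse, sort and library differences cannot be told apart from genotype, and Spp1-positive macrophages numbered only 36 in Vsig4 KO and 73 in WT.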
